A study of Homo sapiens with 6 samples.

Results

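The genes described here are the interferon-stimulated genes of H460 cells together with the sensors of cytosolic DNA and RNA and the transcription factors that switch them on. The set was fixed as a list of 35 gene symbols, each matched to the array feature whose platform symbol, current or older, was that gene, with the brightest feature taken per symbol. Of the 35, 32 had a feature of their own, among 22411 genes with 1 symbol in the whole series and 67528 transcript clusters (probe groups of 1 locus). No member had more than 1 such feature. The features of IRF9 and TREX1 each carry a second symbol and could not be assigned, and STAT2 was not analysed here. The 32 comprised 5 sensors and regulators (CGAS, STING1, TBK1, RIGI and IFIH1), 3 transcription factors (IRF1, IRF3 and IRF7), the interferon gene IFNB1 and 23 stimulated genes. The rule itself uses no signal difference, but the list was drawn up with earlier results of these data known. No filter on low values was applied.

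Cells recognise DNA outside the nucleus through cGAS, an enzyme that makes a cyclic dinucleotide bound by STING, which then engages the kinase TBK1. RNA is recognised by the helicases RIG-I and MDA5, which signal through the mitochondrial adaptor MAVS to the same kinase. TBK1 phosphorylates IRF3, IRF3 induces interferon beta, and the secreted interferon acts back through its receptor, JAK kinases and a complex containing STAT2 and IRF9 that binds interferon-stimulated response elements in the promoters of antiviral genes. Ionising radiation is known in other systems to leave nuclear fragments in the cytosol that cGAS can bind.

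H460 is an established human non-small cell lung cancer cell line, known to carry wild-type p53. Total RNA of 3 samples without radiation and of 3 irradiated with 7 Gy was measured on the Human Transcriptome Array 2.0, and no other allele or agent is named for either group. How long after irradiation the cells were harvested is not stated in what was used here. The titles call the replicates biological without saying whether they were separate cultures. The p-values therefore set the group difference against the spread between arrays within each group, whatever that spread stands for. The array names in the labels run in consecutive numbers by group, so an effect of array order cannot be told apart from irradiation.

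Array medians over transcript clusters lay between 4.65 and 4.70 on the log2 scale, and arrays of different groups correlated at 0.994 to 0.995 (Pearson's r over these features). The p53-induced genes GDF15, MDM2 and CDKN1A rose by 2.93, 2.06 and 0.77 on the log2 scale (limma adjusted p of 4.74e-06, 3.12e-05 and 0.00345). Limma called 0 of 7 genes of the epithelial list, which also holds the mesenchymal cadherin CDH2. The count was the same with a trended or an unmoderated variance, and 3 of the 7 had an unadjusted p under 0.05. KRT8, KRT18 and KRT19, keratins of simple epithelia, had control means of 10.86, 10.08 and 10.15, and EPCAM, an epithelial adhesion gene, had 4.04, where the 23 background controls had a median of 3.74. Limma called 0 of 9 blood cell, 6 fibroblast and 4 endothelial markers, also in its other forms, and an unadjusted p under 0.05 was seen for 1, 1 and 0 of them. Of the 9 blood cell markers, 3 (PTPRC, LYZ and CLEC4C) lay below that median in both groups and 6 did not. The background controls ran from 2.17 to 11.67 on the log2 scale. Their median is thus no floor, and a signal above it does not show expression. Among the blood cell markers, control means ran from 2.86 for PTPRC to 6.37 for NKG7, a gene of cytotoxic lymphocytes. CD14, a monocyte gene at 6.18 in control cells, differed by -0.17 (limma adjusted p = 0.0875, and 0.0342 with bright features alone). The part of other cells in the results was not tested.

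After irradiation, no member of the set rose, 3 fell and 29 did not pass the test. All 3 that fell, IFI44, IFI44L and DTX3L, were stimulated genes, and the largest change was the 1.40-fold decrease of IFI44. The test was limma on the log2 signals of all 67528 transcript clusters, irradiated minus control, and a gene was called at an adjusted p (Benjamini-Hochberg over that table) under 0.05. Of all transcript clusters 5.05% were called, 2.25% higher and 2.8% lower. Among genes with 1 symbol the shares were 9.18% in either direction, 3.65% higher and 5.52% lower. The 3 calls in 32 amount to 9.38%, so the share of called members lay near that of all named genes.

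The median difference of the 32 members was 0.00 on the log2 scale, with 16 positive and 16 negative, against 0.01 over all genes with 1 symbol and 0.03 over all transcript clusters. The groups did not overlap for 9 members, 1 with all irradiated arrays higher and 8 with all lower. That is 28.1% of the members. Among genes with 1 symbol 35.1% did not overlap (19.1% higher and 16% lower), and among all transcript clusters 24.6% (15.2% higher and 9.41% lower). An unadjusted p under 0.05 was reached by 7 of the 32 members, where 24.6% of genes with 1 symbol and 18.4% of transcript clusters reached it. The arrays bounded the changes tightly. The median standard error was 0.05, and the 95% confidence interval of the difference lay within 0.5 log2 units of 0 for 31 of 32 members, the exception being IFI44, and within 1 log2 unit for all 32. The highest upper bound was 0.27, or 1.21-fold, for RIGI, and 0.23, or 1.17-fold, among the 23 stimulated genes. These bounds concern the array signal. For IFNB1, IFIT1, OAS2 and RSAD2 both group means lay below the median of the background controls, where array signal may respond little to transcript level, which was not tested. Members above that median may share this limit, since blood cell markers had control means of up to 6.37.

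**Figure D1:**
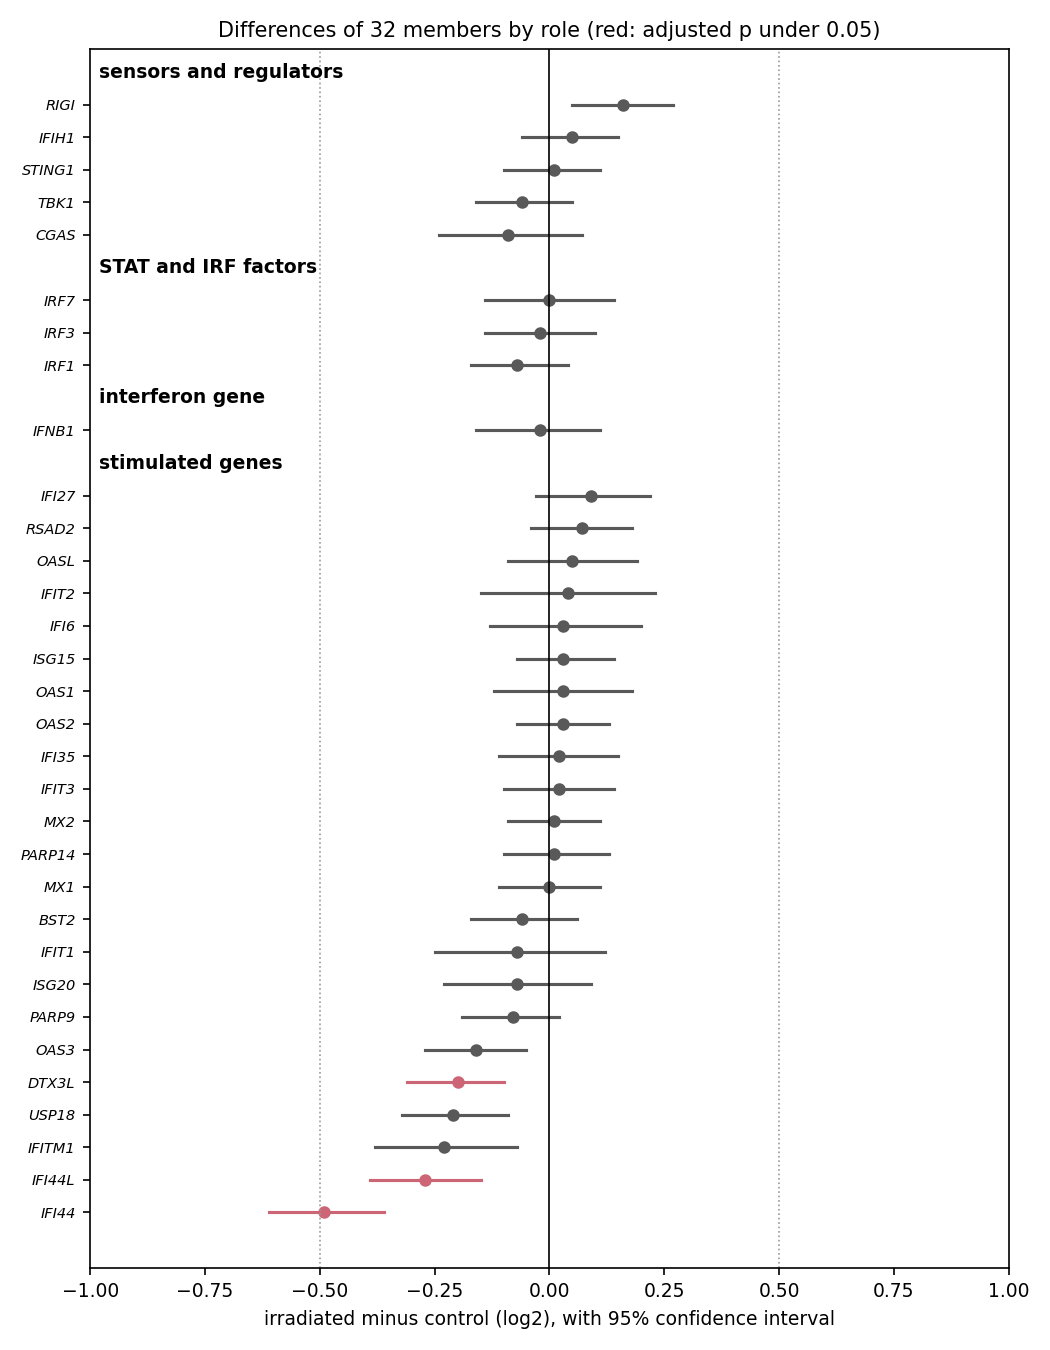
Difference of each of the 32 members, irradiated minus control on the log2 scale (horizontal axis), with its 95% confidence interval, grouped by role; dotted lines mark 0.5 log2 units on either side of 0. IFI44, IFI44L and DTX3L, in red, are the genes called by limma, and only the interval of IFI44 reaches past a dotted line.

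None of the 5 sensors and regulators passed the test. Limma called 0, as did its trended and unmoderated forms, 1 gene had an unadjusted p under 0.05, and the median difference was 0.01. RIGI, which encodes the RNA helicase RIG-I, had signals of 4.95, 4.89 and 4.96 in control cells and 5.07, 5.14 and 5.08 in irradiated cells. All irradiated arrays lay above all control arrays, and it was the only member of the 32 for which this was so. The difference was 0.16 (SE 0.05, 95% confidence interval 0.05 to 0.27), with an unadjusted p of 0.00925 and an adjusted p by limma of 0.109. It passed only where dim features were left out before adjustment (adjusted p = 0.0464).

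CGAS, the DNA sensor itself, had signals of 4.24, 4.21 and 4.27 in control cells and 4.10, 4.07 and 4.28 in irradiated cells. The groups overlapped, since irradiated array 3 stood above every control array while the other irradiated arrays stood below. Its difference was -0.09 (SE 0.07, limma adjusted p = 0.535). TBK1, the kinase shared by the DNA and RNA branches, had signals of 7.35, 7.33 and 7.35 against 7.24, 7.32 and 7.30. Its groups did not overlap, although the nearest arrays, at 7.33 and 7.32, almost met, and the difference was -0.06 (SE 0.04, limma adjusted p = 0.552). STING1, the adaptor downstream of cGAS, had means of 6.13 in both groups and an interval from -0.10 to 0.11. IFIH1, which encodes the RNA sensor MDA5 and is itself induced by interferon, differed by 0.05 (-0.06 to 0.15).

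None of the 3 transcription factors passed. Limma called 0 of them, as did its other 2 forms, 0 had an unadjusted p under 0.05, and the median difference was -0.02. IRF1, a factor induced mainly by interferon gamma, had signals of 5.85, 5.88 and 5.82 in control cells and 5.83, 5.75 and 5.77 in irradiated cells, with overlapping groups and a difference of -0.07 (SE 0.05, limma adjusted p = 0.517). IRF3, the factor that TBK1 phosphorylates, had 6.46, 6.54 and 6.42 against 6.50, 6.45 and 6.40. IRF7, the factor whose induction amplifies the response, had 6.82, 6.96 and 6.77 against 6.88, 6.85 and 6.81. For IRF3 and IRF7 the irradiated values fell inside the control range or within 0.02 of it, and the 95% intervals ran from -0.14 to 0.10 and from -0.14 to 0.14.

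IFNB1, the gene of interferon beta, had signals of 3.00, 2.94 and 2.85 in control cells and 2.90, 2.96 and 2.86 in irradiated cells. Every irradiated value lay within the control range, and the difference was -0.02 (SE 0.06, interval -0.16 to 0.11, limma adjusted p = 0.862). Of 20 other interferon genes 0 passed in any of the 3 forms of limma, and 3 had an unadjusted p under 0.05. The lambda interferon genes IFNL3 and IFNL2, the brightest of that list, had -0.07 and -0.05, and 16 of the 20 lay below the median of the background controls in both groups.

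The 23 stimulated genes held all 3 calls, each lower, and 20 did not pass. That is 13.0% lower, beside 5.52% of genes with 1 symbol and 2.8% of transcript clusters. The trended form of limma called 4 and the unmoderated form 2. Their median difference was 0.01 and the range ran from -0.49 to 0.09. Since the arrays measured RNA of whole cultures, fewer cells carrying a transcript and less of it per cell cannot be told apart.

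The promoters of the 3 genes that fell are shown because these genes were called, and each holds the core of an interferon-stimulated response element. That of ISG15, chosen after its values were seen, is shown as a stimulated gene that did not pass. Each window is 300 bases, from 250 before to 50 after the annotated start (RefSeq, GRCh38.p14, gene strand +). The core searched for was GAAA, any 2 bases and GAAA, or on the opposite strand TTTC, any 2 bases and TTTC, and overlapping matches were counted. Capitals mark matches, and overlapping ones run together. The windows are chr1:78649539-78649838 for IFI44, chr1:78620198-78620497 for IFI44L, chr3:122564088-122564387 for DTX3L and chr1:1013247-1013546 for ISG15.
IFI44: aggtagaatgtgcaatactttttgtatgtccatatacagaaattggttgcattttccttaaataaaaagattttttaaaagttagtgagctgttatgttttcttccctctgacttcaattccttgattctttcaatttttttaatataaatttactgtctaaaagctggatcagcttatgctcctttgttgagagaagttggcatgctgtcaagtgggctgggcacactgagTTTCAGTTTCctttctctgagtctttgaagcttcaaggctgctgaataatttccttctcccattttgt
IFI44L: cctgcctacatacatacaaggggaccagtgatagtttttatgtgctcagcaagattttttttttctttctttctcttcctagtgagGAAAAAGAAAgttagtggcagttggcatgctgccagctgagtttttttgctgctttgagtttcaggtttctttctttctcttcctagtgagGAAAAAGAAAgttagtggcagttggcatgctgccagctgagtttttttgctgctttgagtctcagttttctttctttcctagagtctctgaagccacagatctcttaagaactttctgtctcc
DTX3L: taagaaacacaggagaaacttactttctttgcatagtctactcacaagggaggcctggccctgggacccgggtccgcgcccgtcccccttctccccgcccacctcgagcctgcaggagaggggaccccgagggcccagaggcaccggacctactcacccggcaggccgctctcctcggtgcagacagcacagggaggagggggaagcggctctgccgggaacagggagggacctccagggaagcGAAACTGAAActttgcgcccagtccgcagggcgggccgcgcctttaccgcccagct
ISG15: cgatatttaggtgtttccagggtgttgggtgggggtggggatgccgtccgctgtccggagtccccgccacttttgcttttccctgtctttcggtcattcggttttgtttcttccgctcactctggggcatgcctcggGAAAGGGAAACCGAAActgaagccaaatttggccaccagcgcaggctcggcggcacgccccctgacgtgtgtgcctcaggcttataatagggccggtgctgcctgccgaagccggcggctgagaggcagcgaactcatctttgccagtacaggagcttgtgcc

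The match began at position -18 from the start site in IFI44, at -164 and -73 in IFI44L, at -6 in DTX3L and at -113 and -107 in ISG15. Of the 26 members with a promoter window in the table, 17 (65.4%) held the motif, against 4.38% of 27305 genes and 3.57% of 35116 windows. The 17 comprised 16 of 18 stimulated genes and 1 of 4 sensors and regulators, IFIH1, while 0 of 3 factors and 0 of 1 interferon gene held it. All 3 called genes held it, and so did 14 of the 20 members with a window that were measured and not called. The median difference was -0.06 for the 17 measured members with the motif, the 3 called genes among them, and 0.00 for the 6 without. The 6 include IFNB1, IRF1, RIGI and TBK1, which are not stimulated genes, so motif and role cannot be told apart. The 9 members without a window, IFIT2, MX2, OAS2, OASL and USP18 among them, are in neither median. Over all 23 stimulated genes the median difference was 0.01. A match is a string of letters and says nothing about binding in these cells.

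IFI44 encodes an interferon-induced cytoplasmic protein, and its signals were 5.63, 5.61 and 5.72 in control cells and 5.10, 5.19 and 5.21 in irradiated cells. All irradiated arrays lay below all control arrays. It fell by 0.49 on the log2 scale (SE 0.05, 95% confidence interval -0.61 to -0.36, limma adjusted p = 0.00356), from 5.65 ± 0.06 to 5.17 ± 0.06 (mean ± SD, n = 3). The call held in each of the 6 fits that left out 1 array, with differences from -0.51 to -0.45 and adjusted p from 0.0136 to 0.0215.

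IFI44L, a related gene that lies next to IFI44 on chromosome 1 with no coding gene starting between them, had 4.44, 4.37 and 4.38 against 4.06, 4.15 and 4.16. The groups did not overlap, and it fell by 0.27 on the log2 scale (SE 0.05, limma adjusted p = 0.026). With any single array removed IFI44L no longer passed (limma adjusted p from 0.0615 to 0.112), nor did it in the unmoderated test (0.0612).

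DTX3L encodes a ubiquitin ligase that works with the protein of its neighbour PARP9, and both take part in interferon signalling and in the response to DNA damage. Its signals were 6.42, 6.50 and 6.45 in control cells and 6.24, 6.26 and 6.26 in irradiated cells. The groups did not overlap, and it fell by 0.20 on the log2 scale (SE 0.04, limma adjusted p = 0.0481). DTX3L too failed the threshold with any single array removed (0.109 to 0.165) and after quantile normalization (adjusted p = 0.0517). PARP9 starts next to DTX3L on chromosome 3 and on the opposite strand, and a promoter window of PARP9 shares 137 bases with that of DTX3L, the motif at -6 among them. PARP9 had 5.30, 5.28 and 5.27 against 5.21, 5.24 and 5.15, which did not overlap, and a difference of -0.08 (SE 0.05) that did not pass (adjusted p = 0.396). PARP14, a macrodomain ADP-ribosyltransferase of the same gene cluster, had 0.01 (-0.10 to 0.13).

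**Figure D2:**
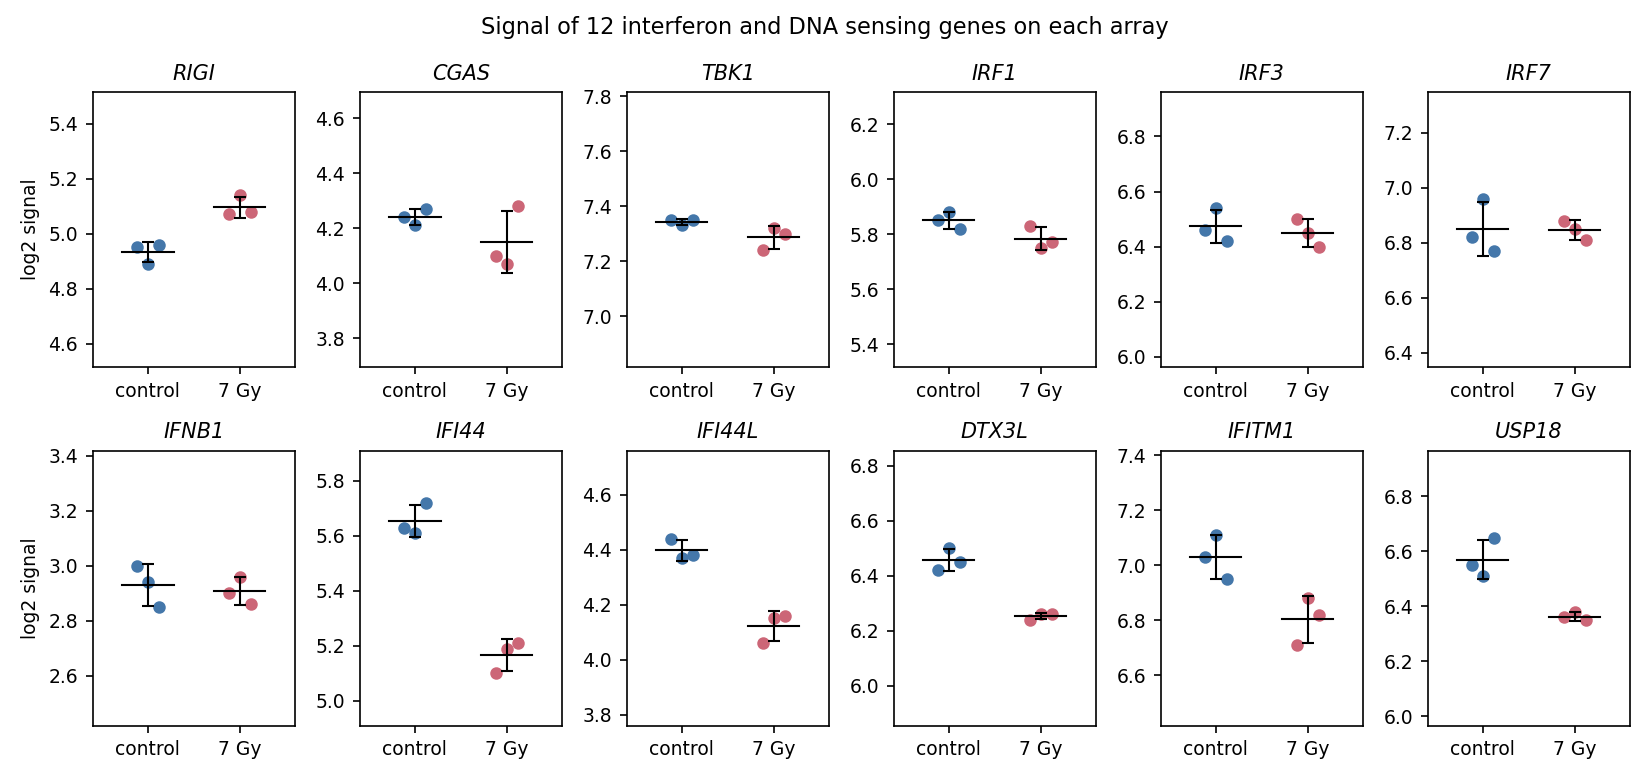
Log2 signal (vertical axis, a span of 1 log2 unit in every panel) of 12 genes on each of the 3 control (blue) and 3 irradiated (red) arrays, with the group mean and SD as lines. The groups separate for IFI44, IFI44L, DTX3L, IFITM1, USP18, TBK1 and, in the other direction, RIGI, while IFNB1, IRF1, IRF3, IRF7 and CGAS overlap.

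Of the 23 stimulated genes, 7 were lower on every irradiated array and 0 were higher on every one. Among genes with 1 symbol 16% were lower in this way and 19.1% higher. Some of the 7 did not pass the test. IFITM1, a membrane protein that blocks virus entry, had 7.03, 7.11 and 6.95 against 6.71, 6.88 and 6.82, a difference of -0.23 (SE 0.07, limma adjusted p = 0.114). USP18, the protease that removes ISG15 from proteins and dampens the interferon receptor, had 6.55, 6.51 and 6.65 against 6.36, 6.38 and 6.35. Its difference was -0.21 (SE 0.05) with an adjusted p of 0.0686 by limma and 0.0455 by the trended test. OAS3, a synthetase of the 2-5A messenger that activates RNase L, had 7.05 on each control array and 6.84, 6.95 and 6.88 on the irradiated arrays, a difference of -0.16 (SE 0.05, limma adjusted p = 0.125). USP18, OAS3 and, above, PARP9 were singled out after their values were seen.

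The genes most used to read an interferon response did not pass. ISG15, the ubiquitin-like modifier, had 6.83, 6.86 and 6.85 against 6.83, 6.90 and 6.92, with an interval from -0.07 to 0.14. In the family of IFIT proteins, which bind viral RNA, IFIT1 differed by -0.07, IFIT2 by 0.04 and IFIT3 by 0.02. The dynamin-like GTPases MX1 and MX2 had 0.00 and 0.01. The synthetase genes next to OAS3 on chromosome 12, OAS1 and OAS2, both had 0.03, and the related OASL had 0.05. IFI6, a mitochondrial protein, had means of 9.70 and 9.73, with 9.87 on irradiated array 1 above and 9.62 on irradiated array 3 below every control array.

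IFI27, related to IFI6, had the highest difference of the stimulated genes at 0.09 (-0.03 to 0.22). RSAD2, the antiviral enzyme viperin, had 0.07, and IFI35 had 0.02. ISG20, an exonuclease, had -0.07 and BST2, the tethering protein that holds budding virions at the surface, had -0.06. For each of these 5 genes the groups overlapped, and the unadjusted p was 0.129 or above.

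**Figure D3:**
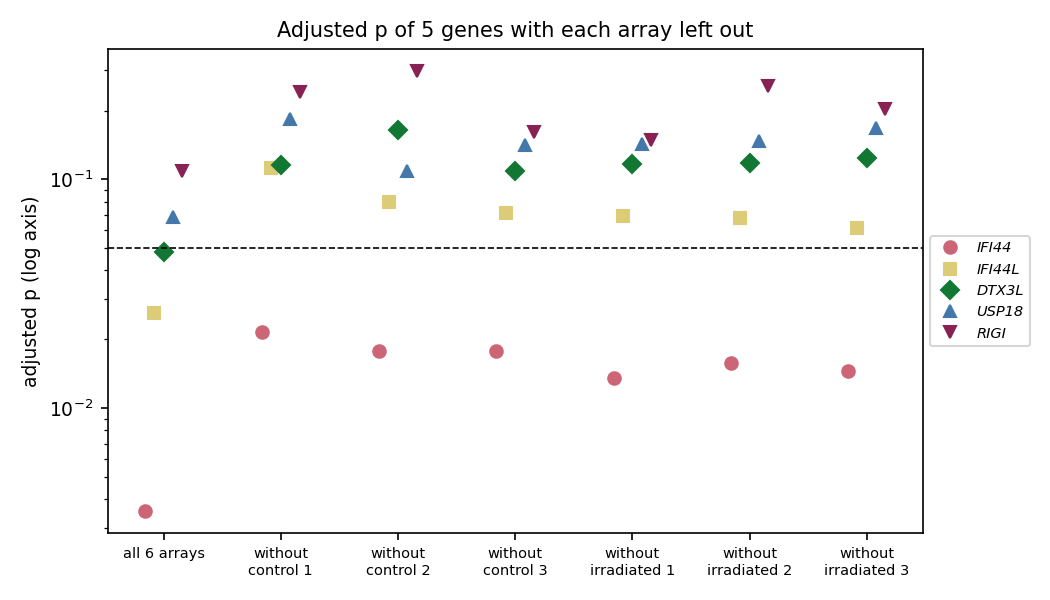
Adjusted p by limma (vertical axis, log scale) of 5 genes with all 6 arrays and with each array left out in turn; the dashed line is the threshold of 0.05. Only IFI44 stays below the line throughout, between 0.0136 and 0.0215 with an array left out.

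The other genes of the pathway, in 6 lists of 144 symbols, gave 133 measured genes, of which 6 rose, 7 fell and 120 did not pass, so 9.77% were called, beside 9.18% of all genes with 1 symbol. In the list of receptors and JAK-STAT signalling, 2 of 15 rose and 0 fell. That is 13.3% higher, beside 3.65% of genes with 1 symbol and 2.25% of transcript clusters. SOCS3, a feedback inhibitor of cytokine receptors, had means of 7.92 ± 0.07 and 8.61 ± 0.08 (SD, n = 3) and rose by 0.69 (SE 0.06, limma adjusted p = 0.00164). STAT3, the factor of the interleukin-6 family, had 7.66, 7.74 and 7.73 against 8.22, 8.21 and 8.21 and rose by 0.50 (SE 0.04, adjusted p = 0.00145). For both genes the groups did not overlap and the calls held with any 1 array left out. The subunits of the interferon alpha and beta receptor, IFNAR1 and IFNAR2, had -0.05 and -0.13 and did not pass.

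Among nucleic acid sensing genes and adaptors, 1 of 20 rose and 1 fell. DHX9, a helicase that unwinds double-stranded RNA and RNA-DNA hybrids, had 8.83, 8.77 and 8.83 against 8.20, 8.19 and 8.24 and fell by 0.60 on the log2 scale (SE 0.04, limma adjusted p = 8.17e-04). MAVS rose by 0.23 (SE 0.05, adjusted p = 0.0417), from 7.28 ± 0.05 to 7.50 ± 0.03 (n = 3), and did not pass with any single array removed (limma adjusted p of 0.0712 up to 0.159) or with arrays centred on their median (0.0554). IFI16, a nuclear DNA sensor, had 0.07 and did not pass.

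In the list of nucleic acid clearance and cGAS restraint, 3 of 13 fell and 0 rose, or 23.1% lower beside 5.52% of genes with 1 symbol and 2.8% of transcript clusters. Of the 13 differences 11 were negative and the median was -0.11, where 9815 of 22411 genes were negative and their median was 0.01. RNASEH2A, the catalytic subunit of RNase H2 that removes ribonucleotides from DNA, had 8.31, 8.41 and 8.47 against 7.68, 7.76 and 7.72 and fell by 0.68 on the log2 scale (SE 0.06, limma adjusted p = 0.00119). Its partner subunits RNASEH2B and RNASEH2C had -0.01 and -0.15 and did not pass. PNPT1, which degrades RNA in mitochondria, fell by 0.36 (adjusted p = 0.00987), and BANF1, a chromatin protein that competes with cGAS for DNA, fell by 0.35 (adjusted p = 0.00705). Without control 1, PNPT1 was not called (limma adjusted p = 0.0532).

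Of 7 other IRF family and partner genes 0 passed in any of the 3 forms of limma and 1 had an unadjusted p under 0.05. The brightest, IRF2BP2 and IRF2BP1, had 0.16 and 0.11. Of 59 further stimulated genes, 3 rose, 3 fell and 53 did not pass, with a median of 0.00. The share called was 10.2%, beside 9.18% of genes with 1 symbol. CD274, the immune checkpoint ligand PD-L1, had 5.15, 4.99 and 5.08 against 5.66, 5.79 and 5.46 and rose by 0.56 (SE 0.09, limma adjusted p = 0.0153). WARS1, a tRNA synthetase gene induced by interferon gamma, rose by 0.40 (SE 0.04, adjusted p = 0.00316), and SLFN11, whose product arrests replication in damaged cells, fell by 0.39 (SE 0.06, adjusted p = 0.0118). The remaining calls, named after their values were seen, were TRANK1 (0.22), GCH1 (-0.28), the enzyme that begins tetrahydrobiopterin synthesis, and PLSCR1 (-0.24), a phospholipid scramblase. WARS1 was called with any 1 array left out, while CD274 did not pass in the fits lacking control 2, control 3 or irradiated 1 (limma adjusted p up to 0.0693), nor did SLFN11 without control 1 or control 3 (up to 0.0613) or GCH1 without any but irradiated 1 or irradiated 2 (up to 0.0653). In the unmoderated test CD274 (adjusted p = 0.102), SLFN11 (0.0605) and TRANK1 (0.0515) did not pass, nor did MAVS (0.0647). TRANK1 and PLSCR1 lost their calls without any 1 array (up to 0.149 and 0.0891).

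**Figure D4:**
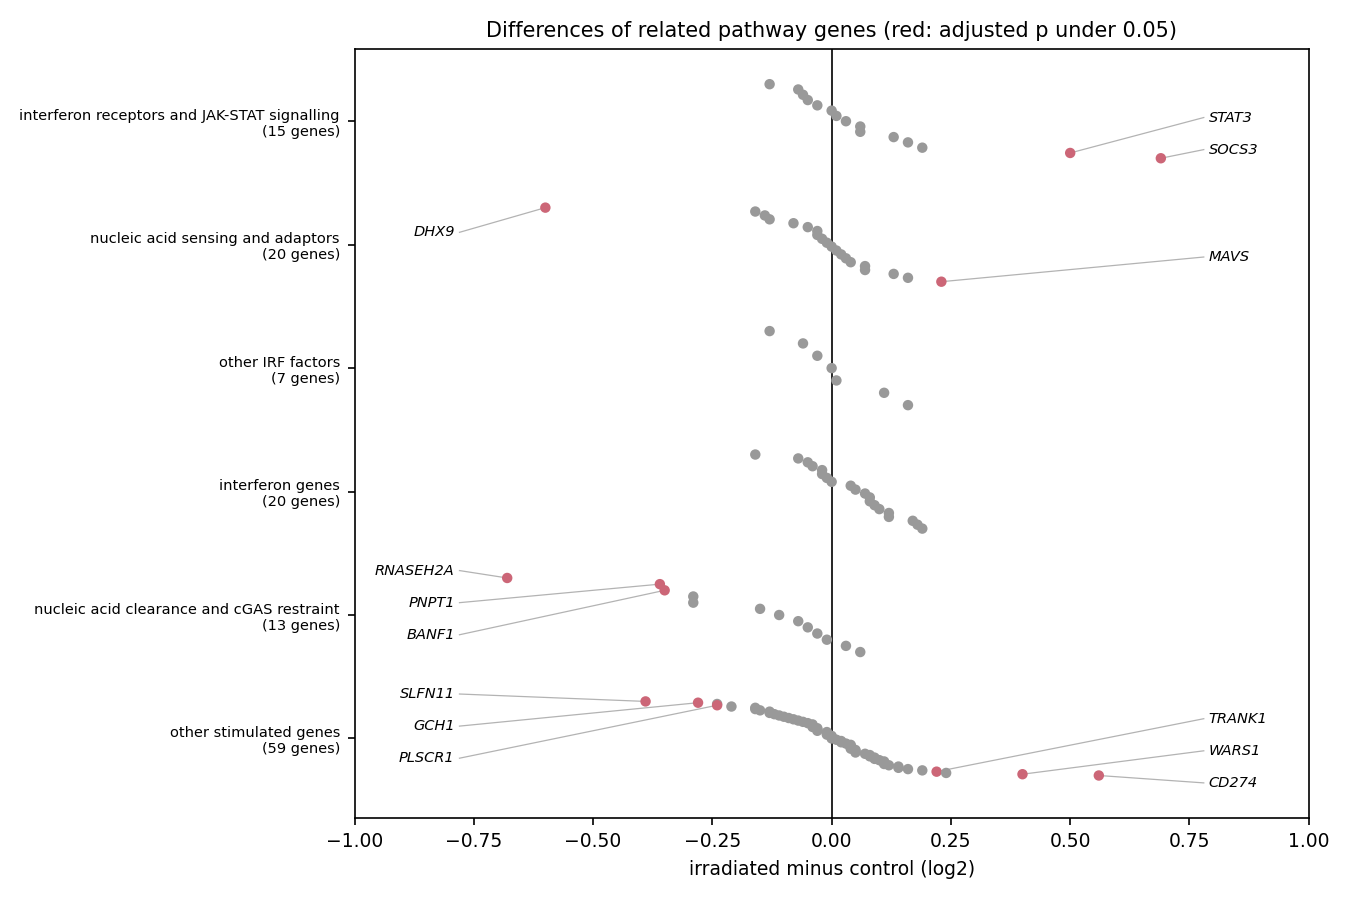
Difference of each measured gene of the 6 related lists, irradiated minus control on the log2 scale (horizontal axis), 1 dot a gene and sorted within each list; genes called by limma are red and named. The 20 interferon genes and 7 other IRF genes hold no called gene, and 10 of 13 clearance genes are grey.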

How the data were processed

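The authors deposited 1 log2 signal for each feature on each array. Per the labels these are RMA signals, whereas the submitters' processing notes name MAS5, with no version. Which method made them is unsettled, though range and medians resemble RMA. They were taken unchanged. The build of the annotation is not stated in what was used here. No detection calls were used. Of 70523 features, the 67528 transcript clusters were kept. The platform annotation gave 23781 of these 1 symbol and 1543 several, leaving 42204 unnamed here; symbols were updated through RefSeq (GRCh38.p14), which held 23777 of the 23781.

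Irradiated and control arrays were compared two-sided with lmFit and eBayes of limma 3.58.1 under R 4.3.3 (Benjamini-Hochberg over 67528 transcript clusters). The code was also run on simulated data with known differences and independent noise, which cannot vouch for the calls made here. The number of arrays limits the precision. The members and lists were chosen with earlier results of these data known. The members given per array are the called ones and the 3 with the largest difference in each role, with others marked. From each related list up to 3 called genes are named, or the 2 brightest. Same-numbered arrays did not deviate together (correlations -0.01, -0.07 and -0.04), so the numbers were not treated as pairs. Alternatives were a replicate block, a trended and an unmoderated variance, all features, bright features alone, quantile normalization, median centring and leaving out each array. A mean over several features per symbol was not fitted, as each member had 1 feature.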

Additional observations from a re-analysis of the deposited data

How the results depend on the processing

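The number of called members was 3 with all features tested or with arrays centred on their median, 4 with the trended variance (USP18 added), 4 with bright features alone (IFI44, DTX3L, USP18 at an adjusted p of 0.0289 and RIGI, while IFI44L was too dim to be tested), and 2 with quantile normalization or the unmoderated model. With the replicate number as a block it was 1, the gene IFI44, and it was 1 on leaving out any 1 array; the count of stimulated genes was 1 in the same 7 fits. These fits have fewer residual degrees of freedom, and called 1598 transcript clusters with the block and 1559 to 2379 without an array, against 3411. With features above the median signal alone, 22 members were left, the sensors and regulators held 1 call (RIGI) and the median of the stimulated genes was -0.028. No value for IFNB1 exists there. The related lists held 7 calls with the replicate block and 7 to 10 on leaving out an array, against 13. On leaving out an array the median log2 difference ran from -0.025 to 0.007 over the members, from -0.021 to 0.021 over sensors and regulators, from -0.049 to 0.011 over the factors and from -0.027 to 0.020 over stimulated genes. Of 769 gene differences recomputed over 13 alternatives, 708 kept their side of the threshold, 57 lost and 4 gained a call, and no called gene changed direction. Signals near the background controls limit what can be said of IFNB1, IFIT1, OAS2 and RSAD2. Blood cell markers had control means from 2.86 to 6.37. Other members within that range, CGAS, IFIH1 and the called IFI44 and IFI44L among them, may be limited as well. IFI44 had means of 5.65 in control and 5.17 in irradiated cells. The called DTX3L lay at the edge of the range, with 6.46 and 6.25.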

Other observations

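Features that carry the symbols of a member and of a neighbouring gene belong in no comparison above. The feature annotated with both IRF9 and RNF31 had 6.80, 6.82 and 6.77 in control cells and 6.91, 6.89 and 6.91 in irradiated cells, a difference of 0.11 (SE 0.04, limma adjusted p = 0.228). The feature annotated with both TREX1 and ATRIP had 6.29, 6.29 and 6.30 against 6.19, 6.20 and 6.17, a difference of -0.11 (SE 0.04, adjusted p = 0.23). The groups of arrays did not overlap for either feature, and neither passed the test.

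Of the 133 measured genes of the related lists, 28 were lower and 27 higher on every irradiated array. The groups thus did not overlap for 41.4%, beside 35.1% of genes with 1 symbol. Several antiviral genes of these lists, named after their values were seen, lay just outside the threshold and were lower on every irradiated array. EIF2AK2, the kinase PKR that stops translation on double-stranded RNA, had -0.24 (limma adjusted p = 0.0512). SAMHD1, a dNTP hydrolase that also limits retroviruses, had -0.29 (0.0514), and IFITM3, a relative of IFITM1, had -0.21 (0.0566). ZNFX1, an RNA-binding helicase gene, was higher on every irradiated array, with 0.24 (0.0552).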
